A study of Mus musculus with 58 samples.

Results

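The hearts (HRT) and soleus muscles (SOL) of healthy control mice were compared over all genes that the array table allows to be named, to describe what separates 2 oxidative striated muscles that share slow contractile isoforms. The samples were chosen by their labels alone and comprise 9 of the 58 arrays of the series, with 3 HRT arrays and 6 SOL arrays of the control group (C). The C mice were male CD2F1 mice, a cross of BALB/c and DBA/2, which arrived at 6 to 8 weeks of age weighing approximately 20 g. They carried no tumour, had been injected under anaesthesia with 0.2 ml HBSS, a salt solution, as a sham, were not vibrated, were housed singly and were killed at day 19. The other groups of the series carried C26 adenocarcinoma cells, were subjected to whole-body vibration training (WBV), or both. All 3 mice whose hearts were analysed also gave a SOL array, since heart replicates 1, 2 and 3 come from the mice of SOL replicates 2, 3 and 5. Each SOL was divided between RNA and histology, whereas the sources used here do not state whether atria and ventricles were both in the heart RNA. The extensor digitorum longus (EDL), a fast muscle of the hindlimb, was measured in 6 C mice and is given beside some genes as a level without a test.

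Striated muscle contracts when calcium released from the sarcoplasmic reticulum binds troponin C on the thin filament, which frees actin for myosin. Heart and skeletal muscle build this machine from related genes, and slow skeletal fibres use several of the same isoforms as the heart ventricle, among them slow myosin heavy chain, the slow light chains and slow troponin C. The mouse soleus is a postural muscle of slow and fast oxidative fibres that is driven by motor nerves, while the heart beats on its own rhythm, couples its cells through gap junctions and is tuned by the autonomic nerves. The adult mouse ventricle differs from that of larger mammals in using Myh6 rather than Myh7 as its main myosin heavy chain.

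Each value is a log2 fluorescence intensity of a probe set after normalization of all arrays together, so a difference of 1 is a 2-fold difference in intensity, and a value near 2 to 4 is at the dim end of the scale. Whether differences are compressed at the bright end of the scale was not tested, so similar bright intensities need not mean equal amounts of RNA. Differences are HRT minus SOL and are given with their standard error. A gene was called when its adjusted p from limma was under 0.01. Over all genes, 2 arrays of the same tissue correlated at 0.988 to 0.994 and a heart with a SOL at 0.937 to 0.945. The running numbers in the sample descriptions, whose meaning is not stated, are 27 to 46 for SOL and 86 to 93 for HRT, so that tissue and whatever they count cannot be told apart. Fewer cells of a type and less RNA per cell cannot be told apart in such whole-tissue samples.

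The labels were first checked against the marker genes. Nppa, which encodes atrial natriuretic peptide, was at 12.86, 12.87 and 12.61 in the 3 hearts, and in SOL it ran from 3.20 to 3.74 with a median of 3.36. Tnni1, the slow skeletal troponin I, was at 4.35, 3.78 and 4.63 in the hearts and ran from 11.36 to 11.69 with a median of 11.59 in SOL. Every array thus lay on the side of its label for both genes. Myh6, the third marker, has no probe set of its own. The probe set shared by Myh6 and Myh7 was at 12.41, 12.42 and 12.41 in the hearts and at 7.69 to 8.13 in SOL. By its annotation it can be assigned to neither gene alone. It ran opposite to the value of Myh7 alone. That value was 8.08, 8.17 and 7.31 in the hearts and 12.33 to 12.48 in SOL.

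Of the 18820 genes tested, 4592 (24.4%) were called. Of these, 2815 (15.0%) were higher and 1777 (9.44%) lower in HRT than in SOL, and 7912 genes had an unadjusted p under 0.05. Differences of more than 2-fold made up a smaller share, with 786 genes (4.18%) higher and 578 genes (3.07%) lower in HRT. The median difference over all genes was -0.01. These shares are the background against which the counts per gene list are to be read.

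**Figure D1:**
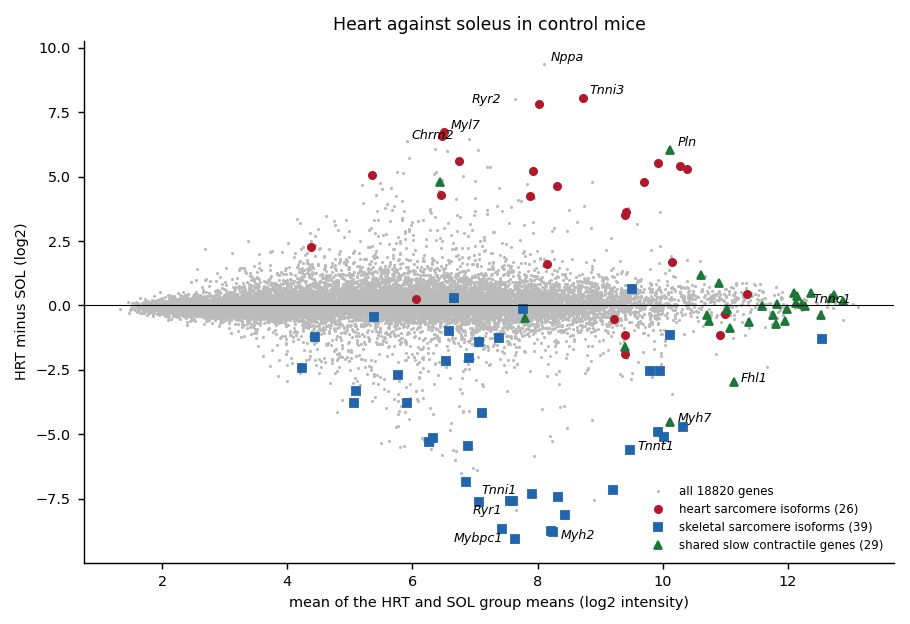
Difference between the HRT and SOL group means (vertical axis, log2) against the mean of both group means (horizontal axis, log2 intensity) for each of the 18820 genes, with 3 gene lists coloured. The heart isoforms reach 8.05 for Tnni3 and the skeletal isoforms reach -9.06 for Mybpc1. Most of the shared slow genes lie close to 0 at the bright end of the scale, where compression of differences was not tested.

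The largest differences were found in genes for hormones, contractile proteins and calcium channels. Nppa had the largest rise, with a difference of 9.36 ± 0.14 (adjusted p = 4.84e-16). It was followed by Tnni3 (cardiac troponin I), Ryr2 (the cardiac calcium release channel), Mybpc3 (cardiac myosin-binding protein C), Myl7 (the atrial regulatory light chain), Nppb (brain natriuretic peptide), Lrrc10 (a leucine-rich repeat protein of heart muscle), Chrm2 (the M2 muscarinic receptor), Bmp10 (a growth factor of the heart) and Tbx20 (a transcription factor), down to 6.09 ± 0.14 for Tbx20. The gene with the largest fall was Mybpc1, which encodes the slow skeletal myosin-binding protein C. Its level was 2.81, 3.03 and 3.47 in the hearts and ran from 12.06 to 12.33 with a median of 12.14 in SOL. The difference was -9.06 ± 0.11 (adjusted p = 9.23e-17). For both genes the lower tissue was at the dim end of the scale, where the table holds no detection calls, so that the size of such differences, and with it their order, depends on the background of the array. The next largest falls were those of Myh2 and Myh1 (the heavy chains of fast IIa and IIx fibres), Tnnc2 (fast troponin C), Tnnt3 (fast troponin T), Ryr1 (the skeletal calcium release channel), Ampd1 (AMP deaminase of skeletal muscle), Mylpf (the fast regulatory light chain), Ankrd2 (a stretch-responsive ankyrin repeat protein) and Atp2a1 (the calcium pump SERCA1), down to -7.54 ± 0.12 for Atp2a1. In all 20 of these genes the lowest array of the higher tissue lay above the highest array of the other, which was a condition for naming them here.

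The start regions of 4 genes are shown, those of Nppa, Mybpc3 and Mybpc1 because they are among the 20 genes above, and that of Tnni1 because it is a marker of the comparison. Each run is the RefSeq sequence (GRCm38.p6) from 250 bases before to 50 bases after the annotated start, 5′ to 3′ on the strand of the gene. The regions are chr4:148000472-148000771 (plus strand) for Nppa, chr2:91117894-91118193 (plus strand) for Mybpc3, chr10:88605103-88605402 (minus strand) for Mybpc1 and chr1:135799171-135799470 (plus strand) for the first of 2 annotated starts of Tnni1. Capitals mark matches, on either strand, to GATAA (the core bound by GATA factors), to CAGCTG (an E-box of the kind bound by the MyoD family) and to the MEF2 site.
Nppa: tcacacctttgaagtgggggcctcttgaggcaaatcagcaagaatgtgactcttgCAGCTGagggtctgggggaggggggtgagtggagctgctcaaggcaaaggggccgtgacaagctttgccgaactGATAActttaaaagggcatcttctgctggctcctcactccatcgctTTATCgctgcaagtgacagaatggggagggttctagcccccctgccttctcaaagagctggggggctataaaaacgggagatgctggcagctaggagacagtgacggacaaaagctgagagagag
Mybpc3: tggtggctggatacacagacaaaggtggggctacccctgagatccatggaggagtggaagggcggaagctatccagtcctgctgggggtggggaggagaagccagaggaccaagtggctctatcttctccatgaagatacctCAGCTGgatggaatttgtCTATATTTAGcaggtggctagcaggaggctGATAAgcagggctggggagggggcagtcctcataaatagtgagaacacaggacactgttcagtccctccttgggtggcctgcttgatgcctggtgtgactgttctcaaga
Mybpc1: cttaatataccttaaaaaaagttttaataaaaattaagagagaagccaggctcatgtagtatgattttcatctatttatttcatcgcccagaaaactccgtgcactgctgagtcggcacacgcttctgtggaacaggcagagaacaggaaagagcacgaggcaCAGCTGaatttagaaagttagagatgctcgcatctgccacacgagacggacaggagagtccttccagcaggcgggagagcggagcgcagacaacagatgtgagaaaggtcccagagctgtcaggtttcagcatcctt
Tnni1: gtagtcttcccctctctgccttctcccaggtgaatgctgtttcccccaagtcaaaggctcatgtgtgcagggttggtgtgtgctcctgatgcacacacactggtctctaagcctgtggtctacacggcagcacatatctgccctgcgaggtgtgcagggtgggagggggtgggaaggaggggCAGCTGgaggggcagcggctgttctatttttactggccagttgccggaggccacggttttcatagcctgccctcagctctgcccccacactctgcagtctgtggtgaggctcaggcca
GATAA was found at 2 places before the start of Nppa and at 1 in Mybpc3, and at none in the windows of Mybpc1 and Tnni1. CAGCTG was found once in each of the 4 windows, and the MEF2 site once, in Mybpc3. These are matches of letters and not shown to be bound. Over all 32817 promoters of this length, GATAA was held by 25.4%, CAGCTG by 16.3% and the MEF2 site by 1.86%, and over the 18143 promoters of genes on the array by 21.2%, 16.1% and 1.61%. Among the 771 promoters of genes higher in HRT by more than 2-fold the shares were 20.8%, 18.9% and 1.43%, and among the 552 promoters of genes lower by more than 2-fold they were 16.1%, 22.1% and 4.71%. A gene can have more than 1 promoter in these counts, and the shares were not tested against each other.

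The genes listed as slow contractile genes of both muscles fell into distinct behaviours. The list also holds genes of mitochondria and metabolism, such as Ckmt2, Cox8b and Fabp3. Of the 31 genes listed, 29 were measured, of which 10 were higher, 12 were lower and 7 were not called, with a median difference of -0.03. Such differences are of intensity, and for bright genes a value near 0 need not mean equal amounts of RNA. Despite the many calls, 6 of the 29 differed by more than 2-fold, and these were Pln, Nebl and Casq2 on the heart side and Myh7, Fhl1 and Trdn on the soleus side. Tnnc1, the slow and cardiac troponin C that senses calcium, was at 12.27, 12.23 and 12.27 in the hearts and ran from 12.19 to 12.39 with a median of 12.30 in SOL. The arrays of both tissues overlapped, and the difference was -0.03 ± 0.05 with a 95% confidence interval from -0.14 to 0.08 (adjusted p = 0.707). Myl3, the essential light chain of slow muscle and ventricle, was at 12.17, 12.19 and 12.21 in the hearts and ran from 11.88 to 12.21 with a median of 12.12 in SOL, with a difference of 0.11 ± 0.07 (adjusted p = 0.259). The tissues overlapped again. Its partner Myl2, the regulatory light chain, was called with a small difference of 0.28 ± 0.05 (adjusted p = 5.35e-04). Other members with differences within 0.2 were Myom1 and Myoz2 of the M-band and Z-disc, the chaperone Hspb7, the mitochondrial creatine kinase Ckmt2, the cytochrome oxidase subunit Cox8b and Mb (myoglobin), and of these Mb was called, at 0.18 ± 0.05. Differences between 0.2 and 1 were found in both directions. Atp2a2 (the calcium pump SERCA2), Tpm1 (tropomyosin), Fabp3 (heart-type fatty acid binding protein), Cox7a1 and Csrp3 (a LIM protein of the Z-disc) were higher in HRT by 0.38 to 0.87, whereas Actn2 (alpha-actinin), Ldb3, Tcap, Ttn (titin), Des (desmin), Cap2, Smpx, Cox6a2 and Myh7b were lower, down to -0.88 ± 0.05 for Cap2. Of these calls, those of Atp2a2, Cox7a1, Csrp3, Fabp3, Mb, Myh7b, Myl2 and Smpx were lost in a fit of all 58 arrays, which left 4 higher members of the list. The call of Mb was also lost without any 1 heart and without SOL replicate 1, 3, 5 or 6 (adjusted p from 0.0133 to 0.0599), that of Smpx without any 1 heart (0.0138 to 0.0178), and that of Myh7b without heart replicate 1 or 2 (0.0133 and 0.0210). With the mouse as a replicate block in the 3 mice that gave both tissues, Mb and Myh7b were not called (adjusted p = 0.0373 and 0.0202). Myl2 and Mb were not called after a second quantile normalization (adjusted p = 0.0144 and 0.393).

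The members of the list with more than 2-fold differences varied widely in the size of the difference. Myh7, the slow myosin heavy chain, was at 8.08, 8.17 and 7.31 in the hearts and ran from 12.33 to 12.48 with a median of 12.39 in SOL. Every heart lay far below every SOL, with a difference of -4.54 ± 0.14 (adjusted p = 1.37e-12). Pln encodes phospholamban, the brake on SERCA2, and was at 13.13, 13.15 and 13.18 in the hearts and ran from 6.56 to 7.84 with a median of 7.08 in SOL. The difference of 6.05 ± 0.19 (adjusted p = 1.77e-12) went the other way from Myh7, and the 6 SOL arrays spread over more than 1 log2 unit while the 3 hearts lay within 0.1. Casq2 (cardiac calsequestrin, a calcium store) was higher in HRT by 1.17 ± 0.07 and Nebl (nebulette, a thin filament protein of the Z-disc) by 4.80 ± 0.14. Although listed as shared, Nebl was as dim in SOL, at 3.77 to 4.34, as in EDL, at 3.80 to 4.27. Fhl1 (a LIM domain protein) was lower, at -2.97 ± 0.06, and so was Trdn (triadin, an anchor of the calcium release channel), at -1.60 ± 0.20. The value of Trdn is a mean over 19 probe sets, of which the brightest differed by -0.50 without passing the test (limma, adjusted p = 0.0125).

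Beside these levels stand those of EDL, which is fast. In the 6 EDL arrays Tnnc1 was at 6.56 to 8.46, Myl3 at 5.53 to 7.58, Myl2 at 8.61 to 9.54 and Atp2a2 at 7.79 to 9.49, each below all arrays of HRT and SOL. For Myh7 the EDL arrays, at 5.27 to 8.70, spread around the hearts, and for Tnnt1, the slow troponin T, they were at 7.45 to 8.63 against 6.56, 6.64 and 6.83 in the hearts. For Ckmt2 and Cox8b, EDL lay at 11.16 to 11.50 and 11.80 to 11.96, beside 11.54, 11.63 and 11.56 and 11.85, 11.91 and 11.81 in the hearts.

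**Figure D2:**
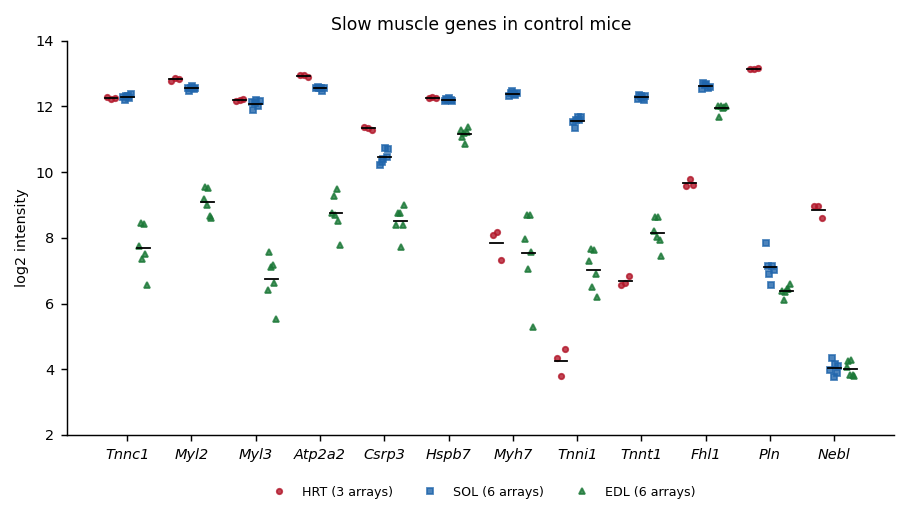
Log2 intensity (vertical axis) of 12 slow muscle genes in each array of C mice, for HRT (circles, n = 3), SOL (squares, n = 6) and EDL (triangles, n = 6), with the group mean as a line. Tnnc1, Myl2 and Myl3 were bright in HRT and SOL and dimmer in EDL, Myh7, Tnni1 and Tnnt1 were bright in SOL alone of the 3 muscles, and Pln and Nebl in HRT alone.

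The sarcomere was otherwise built from different genes in the 2 muscles. Of 26 measured heart sarcomere isoforms, 19 were higher and 3 lower in HRT, with a median of 4.26, and of 39 measured skeletal isoforms, 35 were lower and 1 higher, with a median of -4.16. The 3 members of the heart list that were lower were Alpk3 (an alpha kinase), Xirp2 and Synpo2l (actin-binding proteins of the sarcomere), at -1.89 ± 0.08, -1.16 ± 0.07 and -1.14 ± 0.07, and the member of the skeletal list that was higher was Mylk4, a kinase of the myosin light chain family, by 0.65 ± 0.17, with arrays of HRT and SOL that overlapped. The call of Mylk4 was lost without any 1 heart and without SOL replicate 1, 3, 4 or 6 (limma, adjusted p from 0.0104 to 0.0515). Tnni3 was at 12.83, 12.70 and 12.72 in the hearts and ran from 4.31 to 5.03 with a median of 4.70 in SOL. The troponin I genes changed places, since Tnni3 was higher by 8.05 ± 0.13 and Tnni1 was lower, at -7.32 ± 0.14. Mybpc3 was at 11.93, 11.86 and 12.02 in the hearts and ran from 3.86 to 4.42 with a median of 4.12 in SOL, opposite to Mybpc1. Neb (nebulin, the ruler of the skeletal thin filament) was at 5.58, 5.65 and 5.61 in the hearts and ran from 12.67 to 12.86 with a median of 12.80 in SOL, a difference of -7.17 ± 0.06. Actin genes differed unequally. Acta1, the skeletal actin, was still at 11.77, 12.07 and 11.88 in the hearts against from 13.14 to 13.29 with a median of 13.19 in SOL, and its difference was -1.29 ± 0.06, whereas Actc1, the cardiac actin, differed by 5.32 ± 0.10.

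Pairs of related genes, of which 1 was listed as the heart gene and the other as the skeletal gene, were compared next. Both genes were measured in 23 of 26 pairs. In 20 of the 23 the listed heart gene was higher and the listed skeletal gene lower in HRT. The pairs were chosen with earlier results of these data known, so this count is a description and not a test. The listing does not make a gene particular to that muscle. Atp2a2, Casq2, Nebl and Fhl1 are also among the shared slow genes. Kcnj2, listed as the skeletal partner of Kcnj3, was at 7.67 to 7.99 in the hearts and at 8.42 to 8.86 in SOL. Myom2 and Jph2, listed as heart genes, were at 10.98 to 11.30 and 9.25 to 9.54 in EDL. They were at 10.86 to 11.23 and 8.77 to 9.13 in the hearts. Mybpc3, by contrast, was at 3.91 to 4.32 in EDL. Both differences exceeded 5 in absolute size for the pairs of myosin-binding protein C, ryanodine receptor, troponin I, troponin T, muscle ankyrin repeat protein (Ankrd1 and Ankrd2) and myosin light chain kinase (Mylk3 and Mylk2). In other pairs 1 side carried nearly all of the difference. Atp2a2 differed by 0.39 ± 0.05 and Atp2a1 by -7.54 ± 0.12, and for glycogen phosphorylase Pygb differed by 4.80 ± 0.10 and Pygm by -0.36 ± 0.05. The 3 pairs outside the pattern were AMP deaminase, in which Ampd3 was also lower, at -0.46 ± 0.09, the beta subunit of the sodium pump, in which Atp1b1 and Atp1b2 were both lower, at -0.64 ± 0.07 and -0.53 ± 0.10, and leiomodin, an actin nucleator, in which Lmod2 differed by -0.33 ± 0.11 without passing the test (adjusted p = 0.0265). The calls of Ampd3, Atp1b2 and Atp2a2 were lost in a fit of all 58 arrays (limma, adjusted p = 0.408, 0.233 and 0.256), and that of Atp1b2 also with the mouse as a replicate block in 3 mice (0.0108).

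**Figure D3:**
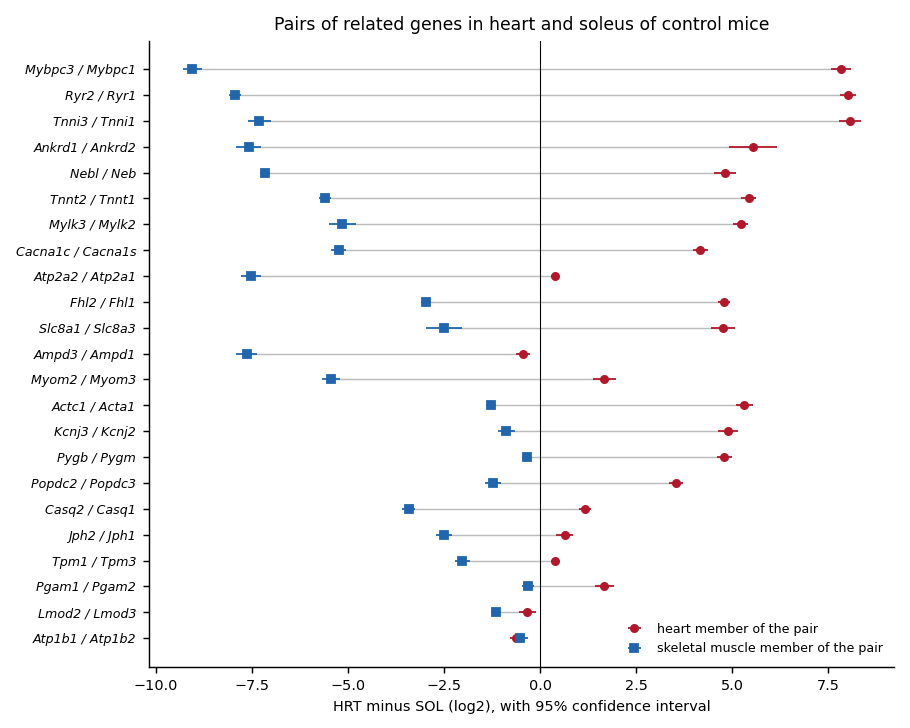
HRT minus SOL difference (horizontal axis, log2) of the heart member (circles) and the skeletal muscle member (squares) of 23 pairs of related genes (vertical axis), with 95% confidence intervals from limma. In 20 pairs the circle lies right of 0 and the square left of it, and the pairs are ordered by the distance between both, from Mybpc3 and Mybpc1 to Atp1b1 and Atp1b2.

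Calcium handling was divided in the same way. Of 50 measured genes, 17 were higher and 23 lower, and 7 and 18 of these by more than 2-fold. Ryr2 was at 11.68, 11.59 and 11.65 in the hearts and ran from 3.49 to 3.81 with a median of 3.62 in SOL, and Ryr1 was at 3.76, 3.74 and 3.58 in the hearts and ran from 11.57 to 11.73 with a median of 11.62 in SOL. Neither gene had an array of 1 tissue within 7 log2 units of the other tissue. The pore of the L-type calcium channel, which triggers release in the heart and acts as the voltage sensor in skeletal muscle, was exchanged as well, with Cacna1c higher by 4.17 ± 0.09 and Cacna1s lower, at -5.25 ± 0.09. Its skeletal subunits Cacng1 and Cacnb1 were lower, at -6.52 ± 0.15 and -2.90 ± 0.11. Slc8a1, the sodium-calcium exchanger that removes calcium from heart cells, was higher by 4.76 ± 0.15. Pvalb (parvalbumin, a calcium buffer of fast fibres) was lower, at -5.26 ± 0.19, with EDL at 12.54 to 12.69 above SOL, which ran from 7.84 to 8.55 with a median of 8.29.

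Genes of membrane excitability were called in both directions. Of 40 measured channels and transporters, 19 were higher and 17 lower in HRT. Kcnip2, Kcnd2 (both of the transient outward potassium current), Kcnj3 and Kcnj5 (both subunits of the potassium channel opened by acetylcholine) were higher by 5.99 ± 0.18, 4.44 ± 0.13, 4.88 ± 0.12 and 4.76 ± 0.13. On the soleus side stood Kcnma1 (the large-conductance calcium-activated potassium channel), Clcn1 (the chloride channel that stabilises skeletal fibres), Kcna7 (a voltage-gated potassium channel) and Atp1b4 (a muscle relative of the sodium pump beta subunit), with differences of -5.63 ± 0.08, -3.14 ± 0.09, -2.82 ± 0.09 and -4.15 ± 0.18. Kcnma1 was at 3.98, 3.80 and 3.73 in the hearts and ran from 9.40 to 9.56 with a median of 9.44 in SOL, so that all hearts lay at the dim end of the scale. Chrm2, the receptor through which the vagus acts on the heart, was at 10.18, 10.09 and 10.13 in the hearts and ran from 3.40 to 4.13 with a median of 3.64 in SOL, a difference of 6.46 ± 0.14. In the list of autonomic receptors and cyclic nucleotide signalling, 16 of 36 measured genes were higher and 7 lower, among them Adcy5 (the adenylyl cyclase of heart) by 3.14 ± 0.10 and Rgs6 (a regulator of G protein signalling) by 3.11 ± 0.13 on the heart side. On the soleus side, Prkg1 (cGMP-dependent protein kinase) and Pde4d (a cAMP phosphodiesterase) were at -1.92 ± 0.15 and -1.65 ± 0.13.

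The intercalated disc, which joins heart muscle cells mechanically and electrically, was among the lists with the largest share of higher genes. Of 27 measured members, 21 were higher and 3 lower in HRT, with a median of 1.31. The desmosome genes Pkp2 (plakophilin), Dsg2 (desmoglein) and Dsp (desmoplakin) and the membrane protein gene Perp were higher by 5.38 ± 0.09, 5.13 ± 0.18, 5.09 ± 0.16 and 5.38 ± 0.13. Pkp2 was at 9.93, 9.95 and 9.89 in the hearts and ran from 4.37 to 4.66 with a median of 4.54 in SOL, without overlap. Cdh2 (N-cadherin) and Gja1 (connexin 43), 2 genes chosen after their values were seen, were higher by 4.63 ± 0.19 and 3.86 ± 0.10. Ank3 (ankyrin G), Des and Xirp2 were the 3 lower members.

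Most of the called transcription factors of the heart list and of the skeletal muscle list were on the side of the muscle they were listed for. Of 27 measured heart transcription factors, 17 were higher and 3 lower in HRT, and of 34 measured skeletal muscle factors, 25 were lower and 2 higher. Tbx20 was at 9.34, 9.50 and 9.36 in the hearts and ran from 3.00 to 3.63 with a median of 3.29 in SOL. Tbx5, Gata4 and Ankrd1 were higher by 5.20 ± 0.13, 5.18 ± 0.13 and 5.54 ± 0.29, the last of which encodes a nuclear cofactor and not a DNA-binding protein. The lower members of the heart list were Mef2c, which also acts in skeletal muscle, Esrrg and Tbx3, at -2.26 ± 0.08, -0.79 ± 0.14 and -0.63 ± 0.10. Irx4, a homeobox gene of the ventricle, was higher by 4.52 ± 0.14. On the skeletal side, Tbx15 was at 3.55, 3.76 and 4.11 in the hearts and ran from 9.96 to 10.35 with a median of 10.09 in SOL. Vgll2 (a cofactor of TEAD factors), Myf6 (the myogenic factor of mature fibres) and Eya1 (a cofactor of homeobox factors) were lower, at -6.02 ± 0.18, -5.56 ± 0.11 and -3.57 ± 0.13. The 2 higher members were Tcf21, a factor of fibroblasts and epicardium as well, by 2.99 ± 0.14 and Prdm1 by 0.54 ± 0.13. The call of Prdm1 was lost without heart replicate 1 or 3, which left 1 higher member (limma, adjusted p = 0.0230 and 0.0235), and with the mouse as a replicate block in 3 mice (0.0286), which also left 1.

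Hox genes, which give cells their position along the body axis, were lower or not called in HRT. Of 22 measured genes of paralogue groups 6 to 13, 17 were lower and 0 higher, with a median of -1.48, and of 14 measured genes of groups 1 to 5, 7 were lower and 0 higher, with a median of -0.53 (limma, adjusted p under 0.01). At an unadjusted p under 0.05 the counts were 18 lower and 0 higher in groups 6 to 13 and 10 lower and 0 higher in groups 1 to 5. Among all genes, 9.44% were lower. Hoxc10 was at 3.84, 3.76 and 3.63 in the hearts and ran from 8.01 to 8.30 with a median of 8.11 in SOL. Hoxc9, Hoxd8 and Hoxc6 were lower, at -3.25 ± 0.13, -2.64 ± 0.19 and -2.62 ± 0.13, and in groups 1 to 5 the largest difference was that of Hoxc5, at -1.68 ± 0.18. EDL was at 8.42 to 8.94 for Hoxc10 and at 6.98 to 7.33 for Hoxc9, and at 4.54 to 4.87 for Hoxd8, which ran from 5.56 to 6.53 with a median of 6.09 in SOL.

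**Figure D4:**
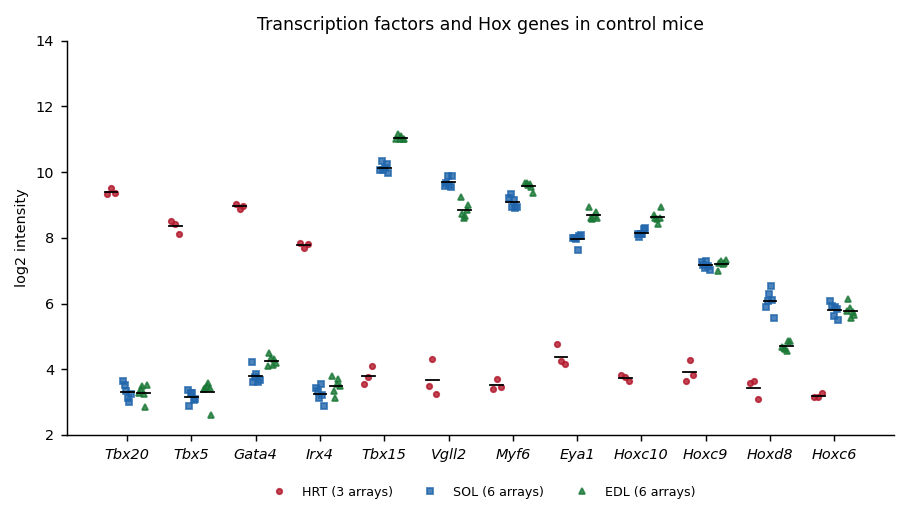
Log2 intensity (vertical axis) of 8 transcription factors or cofactors and 4 Hox genes in each array of C mice, for HRT (circles, n = 3), SOL (squares, n = 6) and EDL (triangles, n = 6), with the group mean as a line. Tbx20, Tbx5, Gata4 and Irx4 were bright in HRT and dim in SOL and EDL, and the other 8 genes were dim in HRT and brighter in SOL and EDL.

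MicroRNA genes of muscle are also on the array, whose probe sets report on RNA from the hairpin locus and not on the mature microRNA. Mature microRNAs pair with target transcripts through the seed, bases 2 to 8, which is in capitals here. RefSeq (GRCm38.p6) gave mature sequences for 5 of the 9 loci examined. The arm known as the main product of each of 4 loci is shown. The reasons are that 2 of the seeds are alike and that of 2 neighbouring loci 1 was called and the other was dim in both tissues.
mmu-miR-208a-3p: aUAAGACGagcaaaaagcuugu
mmu-miR-499-5p: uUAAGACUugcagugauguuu
mmu-miR-133b-3p: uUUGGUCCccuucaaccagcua
mmu-miR-206-3p: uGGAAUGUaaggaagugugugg
miR-208a-3p and miR-499-5p share bases 2 to 7, UAAGAC, and differ at base 8, and the other 2 seeds are unlike these and each other. Mir208a lies on chromosome 14 from 54949072 to 54949093 for this arm, inside Myh6. Its probe set was at 5.73, 4.70 and 5.71 in the hearts and ran from 2.40 to 3.63 with a median of 3.10 in SOL, and it was the 1 locus of the 9 that was higher in HRT, by 2.28 ± 0.26 (adjusted p = 5.95e-06). Mir499, inside Myh7b, was at 2.83, 2.91 and 3.47 in the hearts. It ran from 2.43 to 3.52 with a median of 3.24 in SOL, at the dim end of the scale in both tissues. The arrays overlapped, and the difference was -0.11 ± 0.21 (limma, adjusted p = 0.744). Mir133b, on chromosome 1 from 20682834 to 20682855 for this arm, was at 3.47, 3.53 and 3.61 in the hearts and ran from 5.21 to 6.81 with a median of 6.06 in SOL. It was lower, at -2.53 ± 0.28 (adjusted p = 5.45e-06), without overlap. Mir206 lies next to it, from 20679055 to 20679076 for this arm, and ran from 1.86 to 2.62 with a median of 2.25 in SOL and 2.03, 1.90 and 2.01 in the hearts, at the dim end of the scale in both (adjusted p = 0.213). Mir133a-2, Mir1a-1, Mir1a-2 and Mir133a-1 were lower, at -2.66 ± 0.37, -2.15 ± 0.41, -2.13 ± 0.39 and -1.31 ± 0.33, and Mir486 differed by -0.41 ± 0.11 (adjusted p = 0.0105). The call of Mir133a-1 was lost without heart replicate 1 or 2 and without SOL replicate 1, 2, 4 or 5 (limma, adjusted p from 0.0123 to 0.0394), whereas Mir486 was called without SOL replicate 2 (0.00700) and with the mouse as a random replicate block (0.00934). With a robust variance prior Mir133a-1, Mir1a-1 and Mir1a-2 were not called (0.0505, 0.0166 and 0.0112).

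Genes of energy metabolism differed mostly towards the heart. They differed less than the heart and skeletal sarcomere isoforms, which had been listed as known for 1 muscle. The shared slow contractile genes had a median of -0.03. Such contrasts depend on how the lists were made and were not tested. Of 78 measured genes of the respiratory chain and ATP synthase, 46 were higher and 2 lower in HRT, with a median of 0.34, and 1 of them, Atpif1 (the inhibitor of ATP synthase), differed by more than 2-fold. It was at 11.32, 11.31 and 11.16 in the hearts and ran from 9.38 to 9.58 with a median of 9.51 in SOL. Cox4i1, a cytochrome oxidase subunit, was higher by 0.73 ± 0.08, and the 2 lower members were Ndufb3 (of complex I) and Cox6a2, at -0.50 ± 0.09 and -0.38 ± 0.06. In the citrate cycle and pyruvate list, 17 of 35 were higher and 4 lower, and in fatty acid uptake and oxidation 29 of 53 were higher and 9 lower, with medians of 0.27 and 0.42. Acad11 (an acyl-CoA dehydrogenase), Acot13 (an acyl-CoA thioesterase) and Cpt1a (the liver form of carnitine palmitoyltransferase) were higher by 1.22 ± 0.08, 0.96 ± 0.07 and 1.05 ± 0.15, and Pdk4 (the kinase that closes pyruvate dehydrogenase) and Ucp3 (a mitochondrial carrier of skeletal muscle) were lower, at -1.16 ± 0.17 and -1.14 ± 0.21. In a fit of all 58 arrays Pdk4 and Ucp3 were not called (limma, adjusted p = 0.0247 and 0.178). In that fit 27 of 78 respiratory chain, 6 of 35 citrate cycle and 18 of 53 fatty acid genes were higher, beside 2641 of all 18820 genes. The share of higher citrate cycle genes was thus near that over all genes. With 1 prior variance for all genes, 29 respiratory chain genes were higher. Without heart replicate 2 or 3, 5 fatty acid genes were lower, and with the mouse as a replicate block in 3 mice 5 were lower and 11 citrate cycle genes higher. Ucp1, which belongs to the same list but is the uncoupling protein of brown fat, was at 6.75, 8.45 and 3.95 in the 3 hearts. It was called (adjusted p = 7.22e-04), but its hearts differed from each other by more than 4 log2 units, and it was not called with a robust variance prior (0.0204).

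In glycolysis, glycogen and the purine cycle single genes differed more than the lists as a whole. Of 42 measured genes of glycolysis and glycogen, 12 were higher and 13 lower, with a median of -0.06. The mean level over this list was 8.64 to 8.68 in HRT and 8.39 to 8.45 in SOL, without overlap. Pygb, the brain-type glycogen phosphorylase, was at 11.35, 11.23 and 11.24 in the hearts and ran from 6.30 to 6.69 with a median of 6.41 in SOL. Pfkl (liver-type phosphofructokinase), Hk1 (hexokinase 1), Pygl (liver-type phosphorylase) and Pgam1 (phosphoglycerate mutase 1) were likewise higher, by 3.16 ± 0.11, 2.81 ± 0.08, 2.17 ± 0.10 and 1.67 ± 0.11. Their muscle counterparts moved little. Pygm and Pfkm were lower, at -0.36 ± 0.05 and -0.32 ± 0.05, and Hk2 differed by -0.19 ± 0.08 (adjusted p = 0.0838), where Pfkm and Hk2 were chosen after their values were seen. In a fit of all 58 arrays Pfkm was not called (limma, adjusted p = 0.226). Gys1 (muscle glycogen synthase), Phkg1 (a phosphorylase kinase subunit), Gyg (glycogenin) and Gbe1 (the branching enzyme) were lower, at -1.98 ± 0.07, -1.39 ± 0.10, -1.37 ± 0.06 and -1.34 ± 0.08. The aspartate-glutamate carriers of the malate-aspartate shuttle differed as well. Slc25a13 was at 9.33, 9.19 and 9.40 in the hearts and ran from 3.89 to 4.57 with a median of 4.30 in SOL, a rise of 5.01 ± 0.14, while Slc25a12 was lower, at -0.85 ± 0.06. In the list of ketone and lactate use and the creatine and purine cycles, 9 of 28 were higher and 7 lower. Ampd1 was at 2.81, 3.52 and 3.42 in the hearts and ran from 10.74 to 10.99 with a median of 10.90 in SOL, and the other enzymes of the purine nucleotide cycle, Adssl1 and Adsl, were lower, at -1.53 ± 0.07 and -1.17 ± 0.07. For lactate transport, Slc16a7 was higher by 2.04 ± 0.23 and Slc16a3 lower, at -1.59 ± 0.16.

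Secreted factors and the matrix differed in part. Of 35 measured natriuretic peptides and secreted factors, 14 were higher and 5 lower in HRT. Nppb was at 9.78, 10.11 and 9.38 in the hearts and ran from 2.89 to 3.80 with a median of 3.04 in SOL. Corin, the protease that activates natriuretic peptides, was higher by 5.60 ± 0.12, and Npr2, the receptor of C-type natriuretic peptide, was lower, at -0.97 ± 0.07. Ostn, a peptide secreted by muscle that binds the clearance receptor of natriuretic peptides, was at 3.20, 3.72 and 3.35 in the hearts and ran from 7.83 to 8.35 with a median of 8.18 in SOL, a difference of -4.70 ± 0.14. Of 57 measured genes of the extracellular matrix, 12 were higher and 20 lower, and 13 were lower without heart replicate 1 or without heart replicate 3. In the C + WBV mice, which were vibrated and are described last, 17 were higher and 12 lower. Col1a1 and Col1a2 (fibrillar collagen) and Col12a1 were lower, at -2.60 ± 0.22, -2.19 ± 0.20 and -3.30 ± 0.21, and Fbln1 (fibulin) and Lamb1 (a laminin chain) were higher by 1.91 ± 0.10 and 1.22 ± 0.10. In the dystrophin complex and costamere, 10 of 29 were higher and 7 lower, and the 3 members that were lower by more than 2-fold were Nos1 (neuronal nitric oxide synthase), Flnc (filamin C) and Plec (plectin), at -2.07 ± 0.16, -1.84 ± 0.11 and -1.40 ± 0.07. In a fit of all 58 arrays 6 members of this list were higher.

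Markers of other cell types moved with the tissue, and their part in the differences above was not tested. Markers of tendon were among those with the largest shift. Of 19 measured tendon genes, 15 were lower in HRT and 2 higher, with a median of -2.40 (1 higher without any 1 heart or without SOL replicate 5), and their mean level was 7.20 to 8.17 in SOL and 5.47 to 5.63 in HRT. Tnmd (tenomodulin, which defines tendon cells) was at 3.58, 4.43 and 3.59 in the hearts and ran from 8.62 to 9.99 with a median of 9.54 in SOL. Thbs4 (thrombospondin 4), Fmod (fibromodulin) and Col12a1 of the matrix list belong to the tendon list too, at -5.06 ± 0.18, -4.45 ± 0.17 and -3.30 ± 0.21. On the heart side, epicardial and mesothelial genes were higher in 11 of 14, with 0 lower (limma; 1 at an unadjusted p under 0.05, and 1 without SOL replicate 5) and with mean levels of 5.72 to 5.96 in HRT and 4.23 to 4.38 in SOL, and Upk3b (uroplakin 3b of mesothelium) was higher by 4.25 ± 0.16. Macrophage and monocyte genes were higher in 17 of 22, with 0 lower, also at an unadjusted p under 0.05 (limma), and with mean levels of 6.26 to 6.91 in HRT and 5.35 to 5.75 in SOL. Lyz2 (lysozyme) was at 10.34, 9.41 and 10.76 in the hearts and ran from 7.73 to 8.33 with a median of 8.00 in SOL. Endothelial genes were higher in 16 of 26 and lower in 1, or in 2 without SOL replicate 1 or with the mouse as a replicate block in 3 mice, with a median of 0.40. Fibroblast genes were called in both directions, 9 higher and 7 lower of 18, with Tcf21 and Fbln1 among the former and Col1a1 and Col1a2 among the latter, and 4 were lower without heart replicate 1 or without heart replicate 3.

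Chamber markers showed genes of both atrium and ventricle in the heart RNA. Of 15 measured atrial markers, 13 were higher and 0 lower in HRT (limma; 1 lower at an unadjusted p under 0.05, and 1 called lower without SOL replicate 3 or with the mouse as a random replicate block), with a median of 3.15, and of 10 ventricular markers 7 were higher and 1, Myh7, lower. Myl7 was at 10.06, 10.10 and 9.44 in the hearts and ran from 2.90 to 3.41 with a median of 3.09 in SOL. Conduction system genes were higher in 8 of 11 and lower in 1, including Hcn2 (a pacemaker channel) by 2.89 ± 0.12. Genes of the neuromuscular junction, where the motor nerve meets the fibre, were lower in 12 of 21 and higher in 5, and Musk (the receptor kinase that organises the junction) and Chrna1 (an acetylcholine receptor subunit) were lower, at -5.38 ± 0.12 and -5.33 ± 0.10. Satellite cell genes were lower in 7 of 14 and higher in 2. Myod1, a myogenic factor, and Chodl (chondrolectin) were among the lower members, at -3.00 ± 0.15 and -3.71 ± 0.19. Itga7 (integrin alpha 7) was among the higher members, by 0.52 ± 0.10.

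Some markers varied among the 3 hearts. Replicate 2 had the lowest heart level of Lyz2 and of Cd79a (a B cell receptor chain, at 4.53, 3.34 and 4.94), and the highest of Ucp1. Adipocyte markers were higher in 6 of 17, or in 11 without SOL replicate 5, and lower in 1, Car3 (carbonic anhydrase 3, also of slow muscle), which was at 11.31, 9.44 and 10.65 in the hearts. Lymphocyte markers were higher in 5 of 16 and 0 were lower, also at an unadjusted p under 0.05 (limma). Without heart replicate 2, 13 lymphocyte markers were higher, and without heart replicate 1 or 3, 2 were. In the remaining lists, smooth muscle and pericyte genes were higher in 3 of 15 and lower in 0 (limma; 1 at an unadjusted p under 0.05), endocardial and lymphatic genes higher in 5 of 11 and lower in 2 (1 without any 1 heart), erythroid genes higher in 2 of 6 and lower in 1, and Schwann cell and nerve genes higher in 2 of 18 and lower in 5. Among the erythroid genes, of which 6 of 15 listed were measured, Alas2 (the first enzyme of haem synthesis in red cells) was higher by 3.70 ± 0.18. Car2 (carbonic anhydrase 2) was the lower member, at -0.84 ± 0.14. With 3 hearts, a call in such genes rests on few values.

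**Figure D5:**
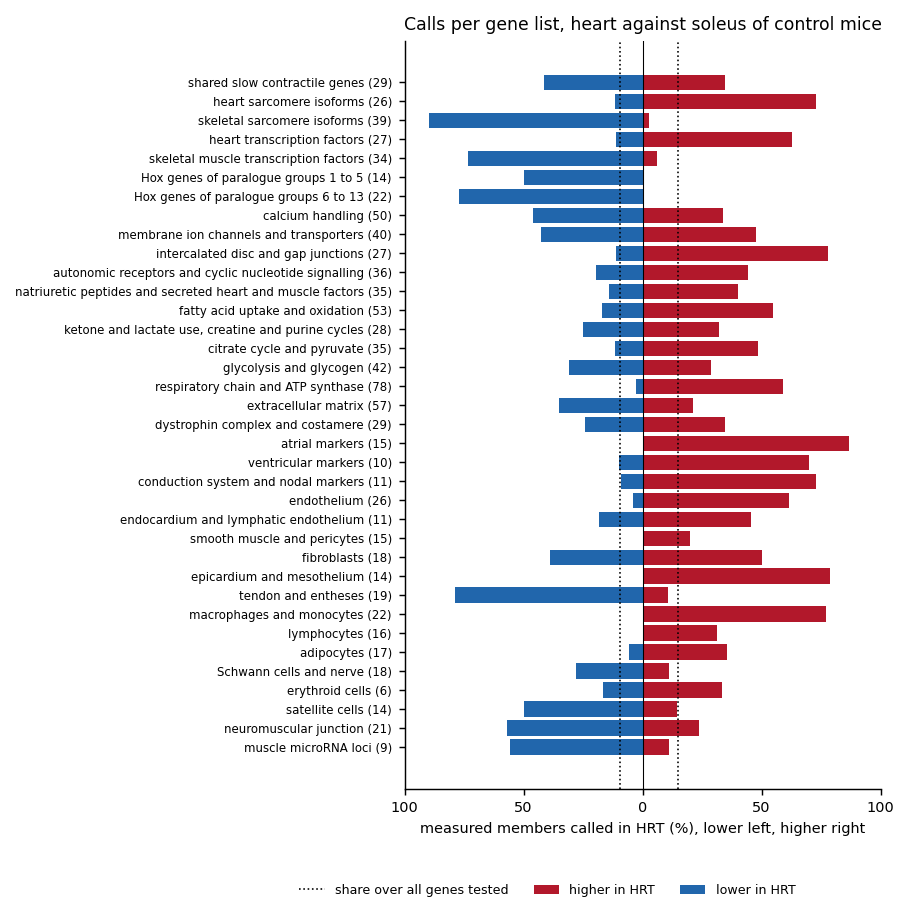
Share of the measured members of each list (number in brackets) that were called higher in HRT (bars to the right) or lower in HRT (bars to the left), in percent, for C mice. Dotted lines mark the shares over all genes tested, 15.0% higher and 9.44% lower, and the longest bar to the right is that of the atrial markers and the longest to the left that of the skeletal sarcomere isoforms.

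The comparison was repeated in C + WBV mice, other mice without a tumour that were vibrated daily, from which 3 hearts and 6 SOL were analysed. In these, 3378 genes (17.9%) were called, 2154 (11.4%) higher and 1224 (6.50%) lower in HRT. Of these, 3081 were also called in C in the same direction, which is 67.1% of the genes called in C and 91.2% of those called in C + WBV, and 0 were called in opposite directions. Of the 1364 genes called in C with more than 2-fold differences, 1268 were called again in the same direction. Of the heart sarcomere isoforms 19 of 26 were higher and 3 lower in C + WBV, of the skeletal isoforms 35 of 39 were lower and 0 higher, of the Hox genes of groups 6 to 13, 15 of 22 were lower, and of the tendon genes 12 of 19 were lower. Other lists had fewer or differently divided calls than in C, with 17 higher and 12 lower of 57 extracellular matrix genes, 20 higher and 3 lower of 53 fatty acid genes, 2 higher of 17 adipocyte markers and 2 higher of 16 lymphocyte markers. The differences between these counts were not tested. Nppa differed by 9.20 in C + WBV, Mybpc1 by -8.84, Tnnc1 by 0.11, Myh7 by -4.21, Pln by 6.08, Hoxc10 by -4.62 and Slc25a13 by 4.96. Ucp1 differed by 1.51 there (adjusted p = 0.0207). The difference between C + WBV and C in the tissue contrast was tested as an interaction, and 0 genes were called (limma). At an unadjusted p under 0.05 there were 467 of the 18820 genes, a limit that some genes pass by chance alone. The gene with the smallest p was Myh2, with an interaction of 0.61 (limma, unadjusted p = 9.19e-05), which did not pass after adjustment.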

How the data were processed

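RNA of heart, SOL and EDL was measured on Affymetrix Mouse Gene 1.1 ST arrays, and the deposited table holds log2 intensity of 35556 probe sets in 58 arrays. Per the labels the authors normalized the arrays with RMA, and no version is named. RMA corrects background, gives all arrays the same distribution and summarizes probes, which compresses differences of dim probe sets and assumes that most genes are alike between tissues. The table has no detection calls. The number of arrays limits the precision.

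GEO's annotation of the array platform, and not the custom probe set definition named in the study's methods, was used to name probe sets, and gave 1 symbol to 21218 probe sets, several to 1881 and none to 12457. Those with 1 symbol were kept and averaged by symbol, which gave 18820 genes (several probe sets in 1386 of them). 0 columns of other samples were present. limma 3.58.1 (R 4.3.3, statmod 1.5.0) compared 3 HRT with 6 SOL arrays of C mice with a trended variance prior and Benjamini-Hochberg adjustment of all p-values, and 0.01 was the limit for a call. The fit was tested on simulated data, in which 67, 67 and 66 of 18820 genes were given true differences of 0.5, 1 and 2. Of these, 31.3%, 85.1% and 100% were called, and 0.0107% of the unchanged genes. A gene that was not called can thus still differ. Far fewer genes were changed in the simulation than were called in the data, so these shares need not hold for the data.

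The same 3 mice gave both tissues according to the mouse numbers in the labels. The deviations of heart and SOL from their group means correlated at 0.05, 0.18 and 0.11 in these mice, and the mouse entered as a replicate block in alternatives. The mice of a group were separate animals.

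The members, lists and pairs were chosen with earlier results of these data known, and their calls are descriptions. The 36 lists hold 1051 entries, of which 963 were measured by a probe set of their own. The 9 microRNA loci were listed once the annotation was known. The genes to name were set by rank, as the top 10 in each direction without overlap between arrays, the 4 largest called differences in each direction per gene list, the 2 largest per cell type list, all pairs, all shared slow genes, the microRNA loci and the markers. The promoter examples and motifs were chosen after the values were seen. Amino acid sequences were not used here. Alternatives were other variance priors, all 58 arrays, mouse blocks, a second quantile normalization, median centring, the brightest probe set, genes above the median level, all probe sets and leaving out each array.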

Additional observations from a re-analysis of the deposited data

Results flagged for a closer look

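Of 167 genes described above, 9 had 1 SOL array of C mice that stood apart from the other 5. In these the gap to the nearest array exceeded Dixon's 95% critical share of the whole range. Chance gives about 1 in 20 such marks, which is close to the share found, so the marks are listed as descriptions. The 3 hearts were too few for this check. SOL replicate 4 held 4 of the marks, with Flnc (filamin C) at 11.35 against 10.74 to 10.87 in the others, Acta1 (skeletal actin) at 13.29 against 13.14 to 13.20, Chrna1 (an acetylcholine receptor subunit) at 7.95 against 8.15 to 8.25 and Eya1 (a transcriptional cofactor) at 7.64 against 7.96 to 8.09. In SOL replicate 1, Hk2 (hexokinase 2) was at 10.29 against 9.92 to 10.03 and Nppb (brain natriuretic peptide) at 3.80 against 2.89 to 3.15. Cox4i1 (a cytochrome oxidase subunit) was at 10.08 in replicate 2 against 10.35 to 10.49, Mir499 at 2.43 in replicate 3 against 3.18 to 3.52, and Actc1 (cardiac actin) at 8.12 in replicate 5 against 7.59 to 7.70.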

How the results depend on the processing

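The counts of calls stayed within 1.5 times of those reported under every alternative run. Alternatives that kept all genes and left out no single array gave 2304 to 2943 genes higher and 1506 to 1902 lower. Among genes above the median level alone, 2297 were higher and 1602 lower. Over all probe sets, 3011 probe sets were higher and 2153 lower. Leaving out 1 array at a time gave 2161 to 2975 genes higher and 1373 to 1848 lower, 755 to 852 higher and 563 to 583 lower by more than 2-fold, and 2358 to 3720 genes called in C + WBV. The share of calls that were higher, 61.3%, ranged from 58.1% to 63.7% over all alternatives. The pairs with opposite calls numbered 17 to 20. The interaction gave 0 calls in each fit made.

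With the mouse as a random replicate block over 9 arrays (correlation 0.0924), 2913 genes were higher and 1875 lower. With the mouse as a fixed replicate block, which keeps 3 mice and 6 arrays, 2304 were higher and 1506 lower, and Mir499 and Tnnc1, neither of which passed the test, turned to 0.11 and 0.0109. Calls of named genes and list counts that the block changed (counts by over 1.5 times) are given beside them, and it changed no other.

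Among values near 0 that did not pass the test, leaving out 1 array turned the sign of Ckmt2 (-0.0513 to 0.00351), Cox8b (-0.00384 to 0.0845) and Mir499 (-0.31 to 0.0109). A fit of all 58 arrays cost 16 of the named genes their call and median centring cost 0 (limma). The cause was not tested. Where 1 tissue is at the dim end of the scale, the size of a rise or fall is limited by background, since the table holds no detection calls.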
